A study of Homo sapiens with 4 samples.

Results

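Immediate early genes are transcribed within minutes of a growth factor or a stress, before any new protein is made. Kinase cascades reach factors that already sit on their promoters, such as serum response factor with its ETS partners and CREB, so these promoters are generally held accessible before the stimulus. Their products are mostly transcription factors, among them the FOS and JUN proteins that pair as AP-1, and regulators that shut the signal off again. The genes examined here were FOS, FOSB, JUN, JUNB, EGR1, EGR3, IER2, IER3, DUSP1 and MYC. They were chosen by name as immediate early factors and regulators, and matched by Entrez identifier. All 10 were found among the 28775 promoters of the count table, and 10 of 10 passed the filter on low counts that left 23407 promoters to test.

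Chromatin accessibility was measured by ATAC-seq, in which a transposase cuts open DNA and tags it for sequencing. The cells of both groups were HEK293T, a human embryonic kidney line carrying the SV40 large T antigen, and were wild type (WT) for MORC2. The 2 control libraries came from cells given lipofectamine, a transfection reagent, and the 2 overexpression libraries from cells transfected with a plasmid for MORC2 tagged with a green fluorescent protein. Whether an empty plasmid went into the control cells is not given in the labels, so the effects of plasmid and of MORC2 cannot be told apart, and nor can a change in all cells and a change in the transfected share of them. Nothing in the labels says that replicates were separate cultures, so p-values rest on the spread between these libraries only. In the main test that spread was shared across promoters, not taken from each promoter alone.

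Total counts ranged from 3734519 to 10255182 per library, and promoters of the mitochondrial genome took 51.9% and 55.6% of them in control and 74.7% and 73.8% in overexpression. Counts at nuclear promoters were 4928862 and 3675088 in control, against 1826951 and 979895 in overexpression, so values of single promoters were least precise in overexpression replicate 2. Replicates of a group differed by more than sampling noise (chi-square per degree of freedom 1.26 in control and 1.14 in overexpression). The MORC2 promoter had 257, 162, 87 and 42 counts in control replicates 1 and 2 and overexpression replicates 1 and 2, which says nothing of the plasmid-borne coding sequence. Of 8 markers named for HEK293T, VIM and CDH2 lay at percentiles 98.5 and 95.7 of nuclear promoters by mean count, NEFL at 70.7, and KRT8, KRT18, PAX2, NEFM and INA between 43.1 and 50.0. Of 9 promoters of genes that mark other cell types, PTPRC and ALB lay at 7.2 and 6.7, whereas APOA1 lay at 64.4, so promoter counts alone separate these lists only in part.

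Promoter sequences show what the members share besides their name. RefSeq sequences on GRCh38.p14 were at hand for 7 of the 10 members. The 4 below are shown because they carry known elements of this class, or, for IER2, because it alone had an edgeR adjusted p under 0.05. That call did not hold under every setting. Each run gives the 250 bases before the annotated start, 5′ to 3′ on the gene's strand. Capitals mark the core of the cAMP response element (TGACG, or CGTCA on the other strand), the full element TGACGTCA, the CArG box bound by serum response factor, and the TATA box (TATAAA).
FOS, chr14:75278578-75278827, plus strand: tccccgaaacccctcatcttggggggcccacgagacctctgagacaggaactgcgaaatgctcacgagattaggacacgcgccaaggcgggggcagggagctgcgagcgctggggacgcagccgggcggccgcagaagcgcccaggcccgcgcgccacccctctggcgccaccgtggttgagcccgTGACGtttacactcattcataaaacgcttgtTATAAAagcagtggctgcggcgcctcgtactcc
EGR1, chr5:138465229-138465478, plus strand: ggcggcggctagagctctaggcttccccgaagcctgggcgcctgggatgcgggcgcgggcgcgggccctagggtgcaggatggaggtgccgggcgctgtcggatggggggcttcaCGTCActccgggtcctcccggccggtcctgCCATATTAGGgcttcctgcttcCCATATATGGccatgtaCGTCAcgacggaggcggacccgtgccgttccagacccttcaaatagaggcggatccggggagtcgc
DUSP1, chr5:172771196-172771445, minus strand: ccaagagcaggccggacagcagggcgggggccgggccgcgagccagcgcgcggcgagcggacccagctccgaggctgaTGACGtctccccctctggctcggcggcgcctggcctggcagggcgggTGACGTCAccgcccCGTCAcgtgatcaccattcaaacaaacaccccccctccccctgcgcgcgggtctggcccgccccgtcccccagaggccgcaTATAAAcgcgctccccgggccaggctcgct
IER2, chr19:13150161-13150410, plus strand: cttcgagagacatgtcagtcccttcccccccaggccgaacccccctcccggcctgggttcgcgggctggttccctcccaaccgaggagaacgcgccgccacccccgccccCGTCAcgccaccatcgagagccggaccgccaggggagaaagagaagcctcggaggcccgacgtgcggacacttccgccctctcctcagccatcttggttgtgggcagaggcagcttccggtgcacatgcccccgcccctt

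The core TGACG was present in 7 of 7 members with a sequence, against 21.7% of 27305 RefSeq promoters in the same 250 bases, both strands searched. Of the 17002 tested promoters with a sequence, 4414 held this core. In FOS it lay 64 to 60 bases before the start, and in FOSB 60 to 56 bases before. The complete element TGACGTCA, which contains the core on each strand, was found in DUSP1 and in 1.77% of all promoters. A CArG box was found in EGR1, at 105 to 96 and at 83 to 74 bases before the start, and in 1.14% of all promoters. For the other members with a sequence, its absence holds for these 250 bases only, as sites outside them were not searched. The TATA box was present in DUSP1, FOS, JUNB and FOSB, 4 of 7 members, against 11.1% of all promoters.

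Other elements of growth-regulated promoters were searched as well. GC boxes (GGGCGG) occurred in 5 of 7 members and 42.3% of promoters, ETS sites (CCGGAA) in IER2 and FOSB and 14.8%, and CCAAT in JUN and JUNB and 33.0%. An EGR site (GCGNGGGCG) occurred in EGR1 and 8.25% of promoters, and an E-box (CACGTG, overlapping the core in DUSP1) in DUSP1 and 6.49%. The AP-1 site TGANTCA occurred in 0 of 7 members and 6.60% of promoters, which says only that these letters are absent from this window. The GC content of the members ranged from 62.0% to 74.4%, with a median of 68.4%, against a median of 58.0% for all promoters. The motif shares of all promoters were not matched to the members in GC content, and its part in the motif counts was not tested.

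**Figure D1:**
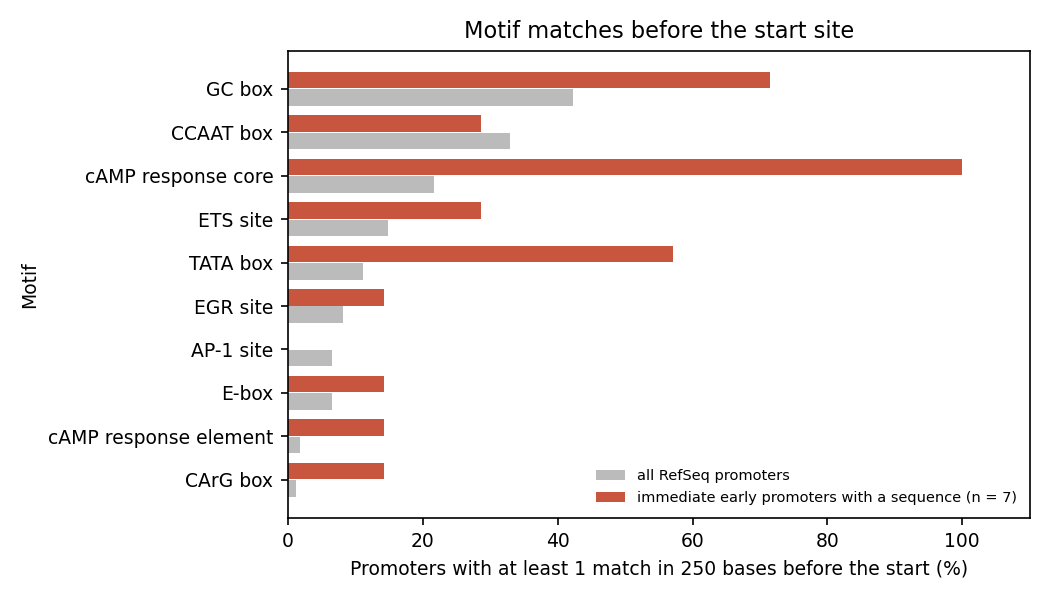
The bars give the percentage of promoters with at least 1 match to each motif in the 250 bases before the start site, for all 27305 RefSeq promoters (grey) and for the 7 immediate early promoters with a sequence (red). The core of the cAMP response element is in 7 of 7 members and in 21.7% of all promoters, and the AP-1 site is in 0 of 7.

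In the control cells, the immediate early promoters ranked from the middle to the top of the tested promoters by accessibility. No peak call or background level was used, so rank alone does not show that each was open. IER3, the lowest member, had 184 and 122 counts in control, against 198 and 149 at APOA1, a marker of another cell type. Accessibility is given as TMM-scaled CPM, a count relative to the library total after correction for composition, and levels of different promoters are set side by side on the assumption that each count covers the 2 kb window by which the study defined a promoter. With the tested promoters split by abundance into 4 bins of equal size, 7 of 10 members lay in the highest bin and 3 (JUNB, EGR3 and IER3) in the next. In control the members ranged from percentile 50.9 (IER3) to 99.7 (JUN), with a median percentile of 86.7. Together they held 0.107% and 0.106% of nuclear promoter counts in control, against 0.110% and 0.102% in overexpression. The 95% Wilson intervals, which cover counting error only, were 0.105% to 0.110% and 0.103% to 0.110% in control and 0.106% to 0.115% and 0.0956% to 0.108% in overexpression. The control shares lay between the overexpression shares.

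The order of levels in control ran from JUN (83.5 ± 0.206 CPM) and EGR1 (71.6 ± 3.02) through MYC (42.7 ± 1.95), DUSP1 (40.8 ± 2.69), IER2 (36.0 ± 1.10), FOSB (26.2 ± 0.0489), FOS (24.2 ± 1.74), EGR3 (20.1 ± 0.810) and JUNB (18.4 ± 3.11) to IER3 (12.4 ± 0.976), each as mean ± SD with n = 2. Neighbours in this order had overlapping values for MYC and DUSP1 and for EGR3 and JUNB, and separate values otherwise. In overexpression the values of IER2, FOSB and FOS overlapped, and IER2 lay at percentile 85.7, against 92.1 in control.

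**Figure D2:**
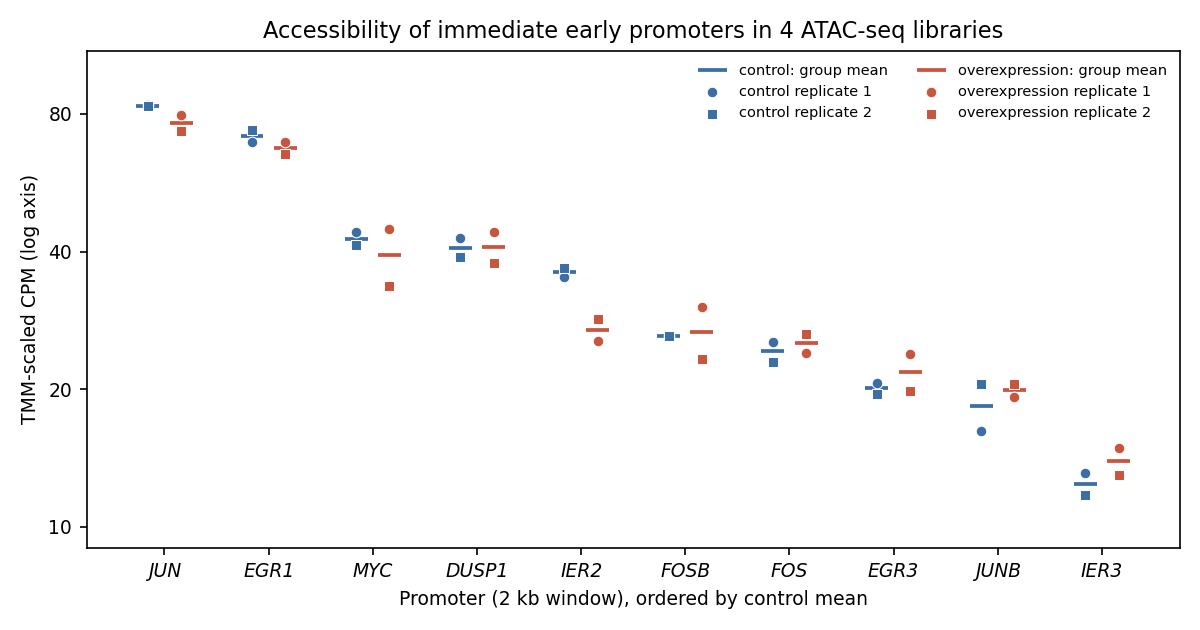
Each point is the TMM-scaled CPM of a promoter (log axis) in a library, with control in blue and overexpression in red, circles for replicate 1 and squares for replicate 2, and a line at each group mean. The promoters are ordered by control mean from JUN to IER3, and IER2 shows the widest gap between the groups.

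With TMM scaling, 1 of the 10 immediate early promoters, IER2, was called lower in accessibility in MORC2-transfected cells, and 0 were called higher. Its fold was 0.740 of control, and the other 9 lay between 0.925 and 1.14 of control with no difference past the threshold. In the whole table, 2.47% of tested promoters were past an edgeR adjusted p of 0.05, 1.30% lower and 1.16% higher in overexpression, so the member count rests on 1 promoter. In the highest bin of abundance, where IER2 and most other members lie, 4.36% of promoters were called lower. The share of called promoters that were lower was 52.9% with TMM, 22.1% with upper-quartile scaling and 40.7% with loess scaling on abundance. At an unadjusted p under 0.05 the count was also 1 of 10, against 17.2% of all tested promoters. The median log2 fold change of the 10 members was 0.03, against 0.01 over all promoters tested. The groups did not overlap at 3 members, IER2, JUN and EGR1, all lower in overexpression, where 24.9% of all promoters lay lower in this way and 24.8% higher (0 members).

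IER2 encodes a nuclear regulator induced by growth factors. Its promoter (Entrez 9592) had 495 and 383 counts in control, against 137 and 83 in overexpression. The TMM-scaled CPM was 35.3 and 36.8 in control and 25.5 and 28.4 in overexpression, so each overexpression library lay below each control library. The log2 fold change was −0.43 (SE 0.126, 95% interval −0.68 to −0.19, edgeR adjusted p 0.0319), and the difference between the groups was larger than that between replicates, 0.06 in control and 0.16 in overexpression on the log2 scale. Whether it differed from the change of the other members was not tested.

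The call for IER2 was close to the threshold and did not hold everywhere. The adjusted p was 0.329 with loess scaling on abundance (log2 fold change −0.30), 0.0906 with upper-quartile scaling, 0.553 in DESeq2 without independent filtering, and from 0.103 to 0.377 with any 1 of the 4 libraries left out. The log2 fold change was below 0 under every alternative run.

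The counts of IER2 cannot be separated from those of its neighbour. STX10, which encodes a syntaxin of vesicle traffic, starts next to IER2 in the opposite direction, and the 2 promoter windows overlap in the RefSeq table. STX10 had 485, 375, 137 and 83 counts, the last 2 of them the same as at IER2, and its log2 fold change was −0.40 (SE 0.126, edgeR adjusted p 0.0485). These are largely the same fragments and are no second observation.

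The FOS family forms AP-1 with JUN proteins. FOS (Entrez 2353) had 357 and 239 counts in control, against 129 and 77 in overexpression, or 25.4, 23.0, 24.1 and 26.4 CPM in the same order. The overexpression values spanned the upper control value, and the log2 fold change was 0.03 (SE 0.132, 95% interval −0.22 to 0.29, adjusted p 0.923). FOSB (Entrez 2354), a close relative of FOS, had 368, 272, 162 and 68 counts. Its CPM of 26.2 and 26.1 in control lay between the 30.2 and 23.3 of overexpression, so the groups overlapped completely (log2 fold change 0.08, SE 0.127, adjusted p 0.801).

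JUN (Entrez 3725), the founding partner in AP-1, had the most accessible promoter of the set. It had 1174, 867, 428 and 214 counts, or 83.6 and 83.3 CPM in control and 79.8 and 73.3 in overexpression. Each overexpression library lay below each control library, but the log2 fold change of −0.11 (SE 0.0940, 95% interval −0.30 to 0.07, adjusted p 0.559) was not past the threshold. Its window overlaps that of the divergent transcript JUN-DT, which had 1050, 750, 385 and 188 counts, with −0.09 as its log2 fold change (SE 0.0965, adjusted p 0.649). With loess scaling the sign turned, to 0.08 for JUN and 0.09 for JUN-DT.

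JUNB (Entrez 3726), an AP-1 partner that often opposes JUN, had 227, 214, 103 and 60 counts. Its CPM was 16.2 and 20.6 in control and 19.2 and 20.6 in overexpression, so that both overexpression values lay within the control range (log2 fold change 0.12, SE 0.144, adjusted p 0.711). The promoter window of HOOK2, a gene of microtubule-linked transport, overlaps that of JUNB. HOOK2 had 259, 251, 131 and 78 counts, with 0.27 as its log2 fold change (SE 0.132, adjusted p 0.274), with both overexpression libraries above both control libraries.

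EGR1 and EGR3 encode zinc finger factors that carry the signal to later genes. EGR1 (Entrez 1958) had 975, 767, 372 and 191 counts, and its CPM was 69.4 and 73.7 in control against 69.3 and 65.4 in overexpression. The groups were separate by a margin far below the spread within them, and the log2 fold change was −0.08 (SE 0.0969, 95% interval −0.27 to 0.11, adjusted p 0.732). It became 0.11 with loess scaling and 0.01 with upper-quartile scaling. EGR3 (Entrez 1960), less accessible, had 290, 203, 128 and 58 counts, or 20.7, 19.5, 23.9 and 19.9 CPM, and the groups overlapped (log2 fold change 0.15, SE 0.137, adjusted p 0.598).

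MYC (Entrez 4609), a factor for growth and division, had 619, 430, 241 and 98 counts. Its CPM was 44.1 and 41.3 in control and 44.9 and 33.6 in overexpression, the widest gap between replicates of the set, −0.42 on the log2 scale. Overexpression replicate 1 lay above both control libraries and replicate 2 below them, and the log2 fold change was −0.08 (SE 0.111, 95% interval −0.30 to 0.14, adjusted p 0.767). It was −0.36 without overexpression replicate 1 and 0.06 without overexpression replicate 2, with neither past the threshold.

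The regulators DUSP1 and IER3 were examined last. DUSP1 (Entrez 1843), a phosphatase that inactivates MAP kinases, had 600, 405, 237 and 110 counts, or 42.7 and 38.9 CPM in control and 44.2 and 37.7 in overexpression. The overexpression values enclosed those of control (log2 fold change 0.02, SE 0.111, 95% interval −0.19 to 0.24, adjusted p 0.935). IER3 (Entrez 8870), which modulates ERK signalling and cell survival, had the lowest counts of the set, 184, 122, 80 and 38. The smallest of these carries a counting error of 16.2%, and at 13.1, 11.7, 14.9 and 13.0 CPM the groups overlapped (log2 fold change 0.19, SE 0.168, 95% interval −0.14 to 0.52, adjusted p 0.601). IER3-AS1, named here after its values were seen, adjoins IER3 and had similar counts of 202, 146, 81 and 40.

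The intervals give the sizes of a missed difference under TMM scaling and a spread shared across promoters. They cover neither the choice of scaling nor a spread particular to a promoter, so they are no firm bound. For the 9 members other than IER2, the lower ends of the 95% intervals corresponded to folds from 0.814 (JUN) to 0.923 (EGR3), and the upper ends to folds from 1.05 (JUN) to 1.43 (IER3). With 2 libraries a group, an exact permutation test of any single promoter cannot give a two-sided p below 0.333.

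**Figure D3:**
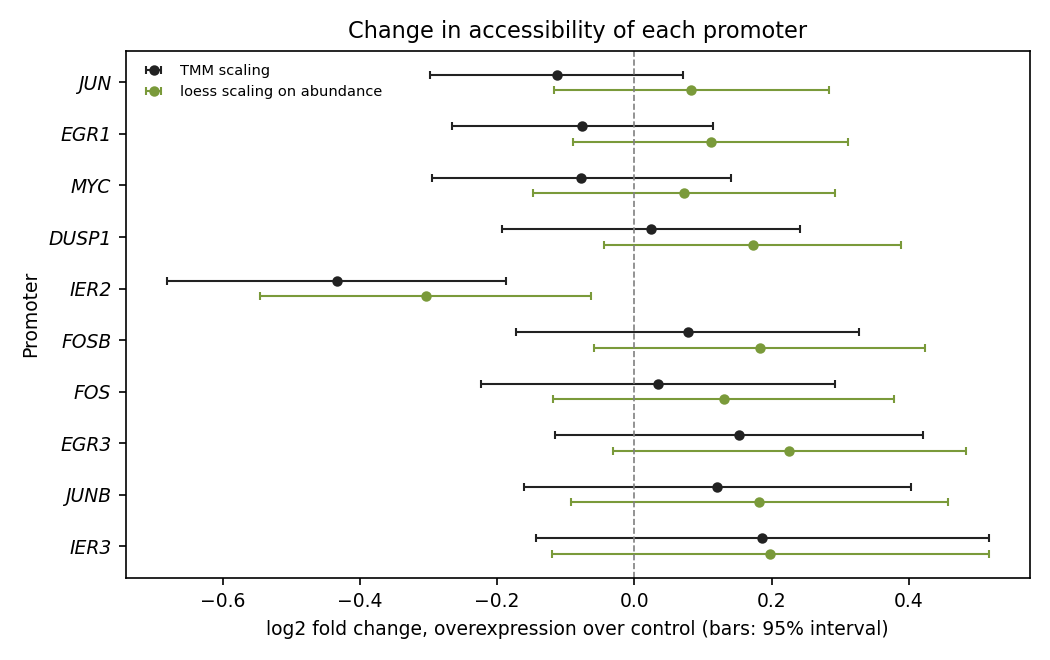
Points give the log2 fold change of each immediate early promoter, overexpression over control, with bars for the 95% interval, under TMM scaling (black) and under loess scaling on abundance (green). Only the interval of IER2 lies wholly below 0 under both, and its adjusted p is 0.0319 with TMM and 0.329 with loess.

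Abundance moved with the fold change in the whole table. In the 4 bins from low to high abundance, the median log2 fold change was 0.38, 0.13, −0.06 and −0.12. Lower values in overexpression with no overlap were seen at 30.6% of promoters of the third bin and 49.2% of the highest, where the members lie. Against those medians, 9 members had a log2 fold change above that of their own bin, and IER2 alone lay below. Loess scaling, which is meant to remove such a trend, left IER2 as the single member below 0. It gave a member median of 0.15, against −0.0068 over all promoters tested. Whether the trend was gone after it was not tested. GC content moved in a similar way, with median log2 fold changes of 0.14, 0.01, −0.06 and −0.07 from the lowest to the highest of 4 bins of 17002 tested promoters with a sequence. Promoters with the core TGACG had a median of −0.06, and those without it 0.01. The part of abundance or GC content in the values of the members was not tested.

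**Figure D4:**
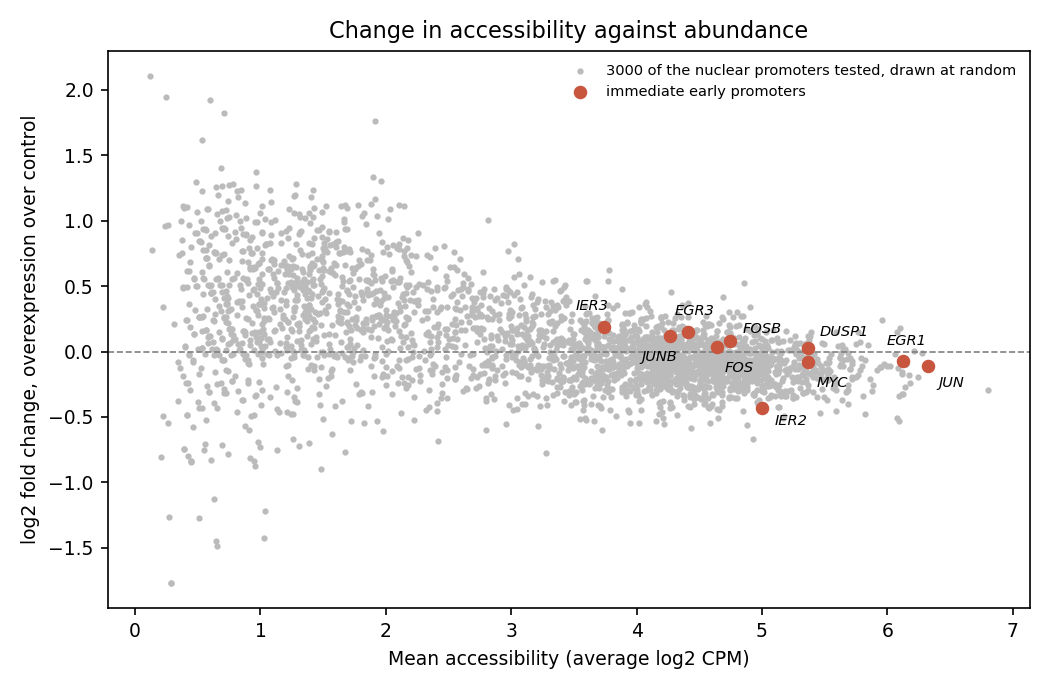
Each grey point is 1 of 3000 tested nuclear promoters drawn at random, with average log2 CPM on the horizontal axis and log2 fold change (overexpression over control) on the vertical axis, and red points are the immediate early promoters. The grey cloud slopes down with abundance, and IER2 sits towards its lower edge while the other 9 members lie between −0.11 and 0.19.

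Genes around the members were read from lists of the same pathway. Of 22 related early response transcription factors, 2 fell and 0 rose, with a median log2 fold change of −0.04, where 1.30% of all tested promoters were called lower and 1.16% higher. In the highest bin of abundance, where the 2 that fell lie, 4.36% of promoters were called lower. At an unadjusted p under 0.05 by edgeR, 2 of the 22 were lower and 2 higher, against 17.2% of all tested promoters in either direction. NR4A3, an orphan nuclear receptor, had 55.5 and 53.5 CPM in control and 41.8 and 36.3 in overexpression (log2 fold change −0.46, SE 0.111, edgeR adjusted p 0.00522). KLF10, a factor induced by TGF-beta, had 63.0 and 65.7 CPM in control and 52.8 and 47.6 in overexpression (−0.34, SE 0.104, adjusted p 0.0441). For both genes, each overexpression library lay below each control library, which held for 49.2% of promoters in their bin of abundance.

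Of 20 upstream and partner factors, 2 fell and 0 rose, against 1.30% and 1.16% of all tested promoters. In the highest bin of abundance, where most of the 20 lie, 4.36% of promoters were called lower. A log2 fold change below 0 was found at 18 of 20 (median −0.18), against 48.6% of all tested promoters. In the highest bin of abundance, even the upper quartile of the log2 fold change lay below 0, at −0.02. An unadjusted p under 0.05 by edgeR was found at 8 of 20, all lower. Among all 23407 tested promoters, 2006 were lower and 2027 higher at that p, or 17.2% in either direction. The part of abundance in these counts was not tested. The 2 promoters called lower were those of CREB1, which encodes the factor that binds the cAMP response element, and CREM, its relative. At both, the groups did not overlap, as at 49.2% of promoters in the highest bin, where both lie. CREB1 had 35.6 and 37.6 CPM in control and 26.5 and 26.7 in overexpression (−0.46, SE 0.126, edgeR adjusted p 0.0199). CREM had 27.1 and 27.2 CPM in control and 19.6 and 19.2 in overexpression (−0.48, SE 0.141, adjusted p 0.0319). The ETS factor genes ELK1 and ELK4, which work with serum response factor, had values of −0.34 and −0.31 (adjusted p 0.0662 and 0.147), and MNT, a MAX partner that opposes MYC, had −0.30 (adjusted p 0.0923). Of these 20 promoters, 14 lay in the highest bin of abundance, whose median was −0.12.

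Of 29 other early response regulators, 0 were past the threshold (median −0.07), and 0 of 29 were past it in DESeq2 without independent filtering. At an unadjusted p under 0.05 by edgeR there were 4, of which 3 were lower and 1 higher. That p was reached by 17.2% of all tested promoters in either direction. The damage-inducible GADD45A had −0.24 (adjusted p 0.150) and the pseudokinase gene TRIB1 −0.23 (adjusted p 0.213). Of 34 genes of the growth factor and stress kinase cascade, 0 were past the threshold (median −0.12), and 0 of 34 in DESeq2 in the same form. At an unadjusted p under 0.05 by edgeR there were 5, all lower, against the same 17.2%. The smallest p there belonged to MAPK8, which encodes the kinase JNK1 that acts on JUN, at −0.43 (SE 0.145, adjusted p 0.0685). IGF1R, a growth factor receptor, had −0.29 (adjusted p 0.114) and RPS6KA5, a kinase of CREB and histone H3, −0.24 (adjusted p 0.211). All 4 calls, for NR4A3, KLF10, CREB1 and CREM, were lost with loess scaling, where their adjusted p lay between 0.239 and 0.629. With 1 library left out, which leaves 3, KLF10, CREB1 and CREM lost their calls in each of the 4 cases and NR4A3 in all but that without control replicate 2.

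**Figure D5:**
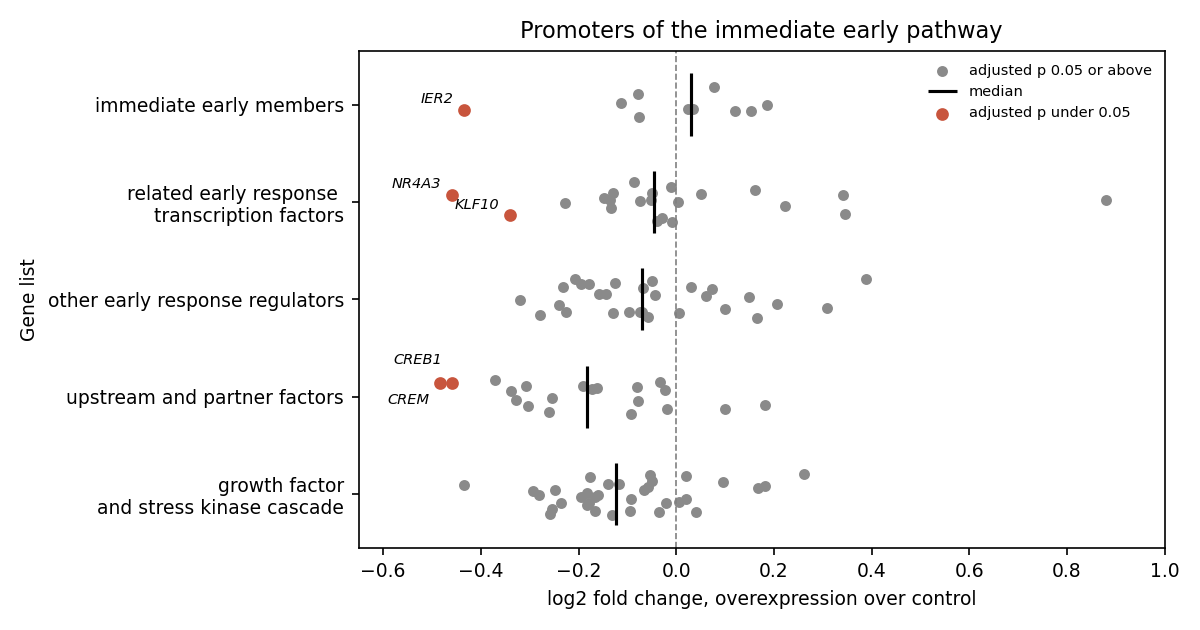
Each point is the log2 fold change of a promoter, overexpression over control, in the immediate early set and 4 lists of its pathway, with a black line at the list median and red for an adjusted p under 0.05. The 5 red points, IER2, NR4A3, KLF10, CREB1 and CREM, all lie below 0, and the member median is 0.03.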

How the data were processed

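ATAC-seq reads of the 4 libraries had been trimmed with trimgalore, aligned by the authors to the telomere-to-telomere CHM13 assembly with bowtie2, filtered for proper pairs and mapping quality, and cleared of duplicates with Picard. The deposited table held raw counts per promoter, 1 row per Entrez gene, with no normalisation. It was taken to cover the window of 2 kb that the study calls a promoter, which is an assumption, and no shift for the transposase offset was described. All count columns belonged to labelled samples. The peak lists were not used here, since promoter positions on that assembly were not at hand.

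Symbols came from the RefSeq table of GRCh38.p14, which named 28763 of 28775 promoters, and served for names and neighbours within 3 kb. Promoters were filtered with filterByExpr, scaled by TMM and tested with the two-sided quasi-likelihood F-test of edgeR 4.0.16 (R 4.3.3, legacy form, no covariate), with Benjamini-Hochberg adjustment over all 23407 tested and a threshold of 0.05. Prior degrees of freedom were infinite, so p-values, standard errors and 95% intervals rest on a dispersion shared across promoters. The test was tested on simulated data. Motifs were matched with Python 3.11.15 in the 250 bases before the start. Alternatives used DESeq2 1.42.0 and limma 3.58.1.

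The members, lists and tests were chosen with earlier results of these data known. Promoters named are the 10 members, every list promoter past the threshold, the 8 others with the smallest unadjusted p over the 4 lists, and neighbours with overlapping windows.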

Additional observations from a re-analysis of the deposited data

How the results depend on the processing

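The cause was not tested for any result below unless one is given. DESeq2 without independent filtering and loess scaling without mitochondrial promoters were chosen after seeing the data. The count of 1 immediate early promoter past the threshold (IER2) was also 1 with DESeq2 size factors, no filter, limma-voom, the robust and edgeR 4 forms of the test, a threshold of 0.1 and without mitochondrial promoters. It was 0 with upper-quartile scaling, both loess scalings, a minimum of 10 counts per library, a minimum mean count of 50, a threshold of 0.01, DESeq2 (4 of 10 members given an adjusted p) and DESeq2 without independent filtering. It was 10 with library totals, which are mostly mitochondrial and moved the median of all promoters to −0.78. Leaving out 1 library, which leaves 3, gave 0 to 0.

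For the related transcription factors the count of 2 became 20 with library totals, 1 with upper-quartile scaling, either stricter filter, DESeq2 and a threshold of 0.01, and 0 with both loess scalings and DESeq2 without independent filtering, with 0 to 1 when 1 library was left out. For the upstream factors the count of 2 became 20 with library totals, 4 with a threshold of 0.1, and 0 with upper-quartile scaling, both loess scalings, a mean count of at least 50, both DESeq2 forms and a threshold of 0.01, with 0 to 0 when 1 library was left out. The other regulators went from 0 to 28 with library totals, and the kinase cascade from 0 to 34 with library totals and 1 with a threshold of 0.1.

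The member median of 0.03 was −0.76 with library totals and ranged from −0.13 (without overexpression replicate 1) to 0.0693 (without overexpression replicate 2) when 1 library was left out. With library totals the sign turned for FOS (−0.76), FOSB (−0.73), JUNB (−0.67), EGR3 (−0.65), IER3 (−0.61), DUSP1 (−0.77) and the neighbour HOOK2 (−0.52). With loess scaling, with and without mitochondrial promoters, it turned for JUN (0.0828 and 0.0732), EGR1 (0.111 and 0.103), MYC (0.0718 and 0.0663) and JUN-DT (0.0925 and 0.0839), and with upper-quartile scaling for EGR1 (0.0068) and MYC (0.0042). With no filter DUSP1 gave −0.0013. With 1 library left out, values ranged from −0.0319 to 0.118 for FOS, from −0.18 to 0.198 for FOSB, from −0.0617 to 0.282 for JUNB, from −0.0288 to 0.236 for EGR3, from −0.13 to 0.101 for DUSP1 and from −0.360 to 0.0618 for MYC. The sign turned without overexpression replicate 1 for FOSB, EGR3 and DUSP1, without overexpression replicate 2 for FOS and MYC, without control replicate 1 for JUNB, and without control replicate 2 for FOS and DUSP1.

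Replicate numbers were shared between groups, but deviations from the group means correlated at only 0.051 between libraries of equal number over 14976 promoters, so the numbers were treated as names. With the replicate block, 488 promoters were past the threshold in place of 577, IER2 had an adjusted p of 0.0369, and the related transcription factors counted 1 in place of 2, as KLF10 reached 0.0602. STX10 reached 0.0569. Over all promoters the count of 577 became 54 and 33 with the 2 loess scalings, 368 and 218 with the stricter filters, 108 and 52 with the 2 DESeq2 forms, 16319 with library totals, and at most 206 with 1 library left out.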
